A study of Mus musculus with 3 samples.

Results

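The Arp2/3 complex subunits are the members described here: Actr2, Actr3, Actr3b, Arpc1a, Arpc1b, Arpc2, Arpc3, Arpc4, Arpc5 and Arpc5l. The list was chosen by the measured ratio of Actr2, which read high in the mutant cortex, and its members were then taken by gene symbol; the question was how the other subunits read. Probes were assigned through their RefSeq accession. Of the 10 listed genes 9 had a probe, 11 probes in all among 41174 gene probes on the arrays, and Arpc2 was not analysed here because no probe carried an accession matched to it. Arpc3 and Arpc4 had 2 probes each and the other 7 genes had 1.

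The study compared cortex of mice heterozygous for the Gtf2i allele written Gtf2i(+/Δex2) with cortex of wild-type mice, WT (+/+). All animals were 16 weeks old, on a background that was 98.4% C57BL/6J with 1.6% from 129Sv/CD1. RNA of 3 to 5 mice per genotype was pooled, and each of 3 Agilent arrays of 60-mer probes carried mutant RNA in one dye and wild-type RNA in the other. The mutant carried Cy3 except on replicate 2, where it carried Cy5. Whether each array had pools of its own is not stated in the labels, so p-values reflect array-to-array spread alone, and that spread may be technical. Gtf2i encodes TFII-I, a transcription factor of the Williams-Beuren interval.

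The Arp2/3 complex is the cell's nucleator of branched actin. Its actin-related proteins Arp2 (Actr2) and Arp3 (Actr3) form the start of a daughter filament, and the ARPC subunits hold them to the side of a mother filament. The complex is inactive until factors of the WASP and WAVE families switch it on. In neurons it is known for shaping dendritic spines and growth cones. Actr3b, Arpc1b and Arpc5l encode alternative forms of Arp3, ARPC1 and ARPC5, so a single complex holds 1 form of each.

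Values are deposited linear intensities in arbitrary units and their log2 ratios, mutant over wild type. That direction is likely, from the order of the titles and the deposited readme, but no label states it outright. A log2 ratio of 1 is a doubling. Every member probe was flagged as reliable on all 3 arrays, and all 6 channel values of each were marked present by the authors. Intensities of different probes are not comparable as levels of their genes, so subunits were not ordered by abundance.

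Gtf2i, the targeted gene, had a log2 ratio of -0.47 ± 0.04 at probe A_52_P442585 and -0.32 ± 0.05 at probe A_51_P499905 (SD, n = 3 arrays; limma adjusted p = 0.0026 and 0.00505). No source used here gives their place relative to exon 2, so whether they lie in the deleted part is unknown. Replicate 3 stood apart in markers of thalamus, whose tested genes had a median log2 ratio of 0.84 there against -0.04 and 0.10 on replicates 1 and 2. Striatal markers read 0.17 there against -0.20 and -0.33. Among the 27530 probes tested, 33.9% passed a limma adjusted p of 0.05, 15.0% higher and 18.9% lower in the mutant, and the median log2 ratio was -0.00. In bulk tissue, fewer cells of a type and less RNA per cell cannot be told apart.

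Promoters are shown for Actr2 and Actr3, which both read high, and for Arpc1a and Arpc1b, neighbouring genes that both read low. Each is the 250 bases before the start site, read 5′ to 3′ on the gene's strand, from RefSeq on GRCm38.p6. Capitals mark CCGGAAG on either strand.
Actr2, chr11:20112952-20113201, minus strand: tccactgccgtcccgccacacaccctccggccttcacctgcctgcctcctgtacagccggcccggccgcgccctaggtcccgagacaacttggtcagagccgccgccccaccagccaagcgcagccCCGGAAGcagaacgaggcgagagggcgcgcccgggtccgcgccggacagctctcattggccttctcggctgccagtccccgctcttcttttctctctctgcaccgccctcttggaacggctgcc
Actr3, chr1:125435728-125435977, minus strand: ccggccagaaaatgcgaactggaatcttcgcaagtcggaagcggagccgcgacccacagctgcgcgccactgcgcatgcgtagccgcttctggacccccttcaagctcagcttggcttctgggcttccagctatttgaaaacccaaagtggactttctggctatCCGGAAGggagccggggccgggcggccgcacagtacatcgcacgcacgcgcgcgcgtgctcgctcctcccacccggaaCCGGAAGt
Arpc1a, chr5:145083619-145083868, plus strand: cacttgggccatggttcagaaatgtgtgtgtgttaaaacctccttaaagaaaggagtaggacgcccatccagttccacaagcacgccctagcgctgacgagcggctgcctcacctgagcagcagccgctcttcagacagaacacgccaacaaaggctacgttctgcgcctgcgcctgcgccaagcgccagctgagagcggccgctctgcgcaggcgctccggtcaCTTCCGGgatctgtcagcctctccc
Arpc1b, chr5:145114006-145114255, plus strand: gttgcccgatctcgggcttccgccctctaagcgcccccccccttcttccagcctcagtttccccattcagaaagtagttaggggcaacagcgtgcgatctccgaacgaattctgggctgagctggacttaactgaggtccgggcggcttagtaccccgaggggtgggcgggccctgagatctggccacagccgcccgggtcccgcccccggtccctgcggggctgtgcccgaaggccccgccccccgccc
Of the 10 subunit genes 8 had a promoter entry. All 8 windows were rich in CG pairs, 14 to 37 in each against a median of 6 over all 32851 windows.

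CCGGAAG is a core bound by Ets family factors, and it was chosen after these letters had been seen. On either strand it stood in the windows of 5 of 8 subunits, Actr2, Actr3, Arpc1a, Arpc3 and Arpc4, in 6.91% of all windows and in 15.4% of the 9646 windows with at least 14 CG pairs. It began 124 bases before the start of Actr2, at 86 and 8 bases before that of Actr3 and at 25 bases before that of Arpc1a. The set that holds it thus includes genes that read high, low and near 0. The E-box CACGTG was in 1 of 8 windows, that of Arpc5, against 6.02% of all. GGATTA, a core bound by repeat domains of the TFII-I family, was in 0 of 8 against 6.25% of all windows, and the CArG box of serum response factor was in 1, that of Arpc4, against 1.47%. None of these motifs overlapped another. A match is only a description of the letters.

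Actr2 and Actr3 read high, while the third actin-related gene, Actr3b, and the ARPC subunits read low or near 0. Actr2 stood at about 1.82 times wild type and Actr3 at 1.55 times. Arpc1a, Arpc1b and Arpc3 fell to between 78.1% and 86.0% of wild type, and Actr3b, Arpc4, Arpc5 and Arpc5l did not pass the test. Arpc1a, Arpc1b and Arpc3 lie on chromosome 5, as does Gtf2i, with 205, 206 and 105 protein-coding genes between them and Gtf2i. Actr3b lies on chromosome 5 too, with 838 genes between. Whether the shared chromosome has a part in these ratios was not tested. Leaving out Actr2, whose ratio chose the list, 1 of 8 measured genes rose and 3 fell. Of all 12717 named genes tested, 17.1% were called higher and 23.6% lower, and nothing is read from so small a count.

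Actr2 encodes Arp2. Its probe A_51_P303906 had intensities of 22602 in the mutant and 12145 in wild type on replicate 1, 27408 and 14820.1 on replicate 2, and 20138 and 11410.2 on replicate 3. All 3 mutant values lay above all 3 wild-type values. The log2 ratios were 0.90, 0.89 and 0.82, with a mean of 0.87 ± 0.04 (SD, n = 3 arrays), and they chose the list, so they are given as a description with no test. Just above Actr2 in the order of mean log2 ratios of named genes stood Iah1 at 0.90 and Sh3bgrl at 0.94, and just below it Srsf1 at 0.86 and Ptp4a1 at 0.82.

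Actr3 encodes Arp3, the partner of Arp2 at the base of the daughter filament. Its probe A_51_P217535 read 21804 in the mutant and 12653 in wild type on replicate 1, 24481 and 16047 on replicate 2, and 17714 and 12591 on replicate 3. The mutant values again lay above all wild-type values, as did those of 13.0% of tested probes. The log2 ratios were 0.79, 0.61 and 0.49, with a mean of 0.63 ± 0.15 (SD, n = 3; limma adjusted p = 0.00347). Actr3 rose, and by less than Actr2 read on each array, with differences of 0.11, 0.28 and 0.33 on the log2 scale.

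Actr3b encodes a second form of Arp3. Its probe A_52_P355365 read 605.1, 582.0 and 601.1 in the mutant and 559.8, 637.5 and 591.1 in wild type on replicates 1, 2 and 3. The values overlapped, and the array with exchanged dyes was the one that read lower in the mutant. The log2 ratios were 0.11, -0.13 and 0.02, with a mean of 0.00 ± 0.12 (SD, n = 3; limma adjusted p = 0.985). Within arrays, Actr3 exceeded Actr3b by 0.67, 0.74 and 0.47 in log2 ratio (exact sign permutation test over 3 arrays, two-sided p = 0.25, the smallest p that 3 arrays allow, or 0.375 adjusted over 6 such differences).

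**Figure D1:**
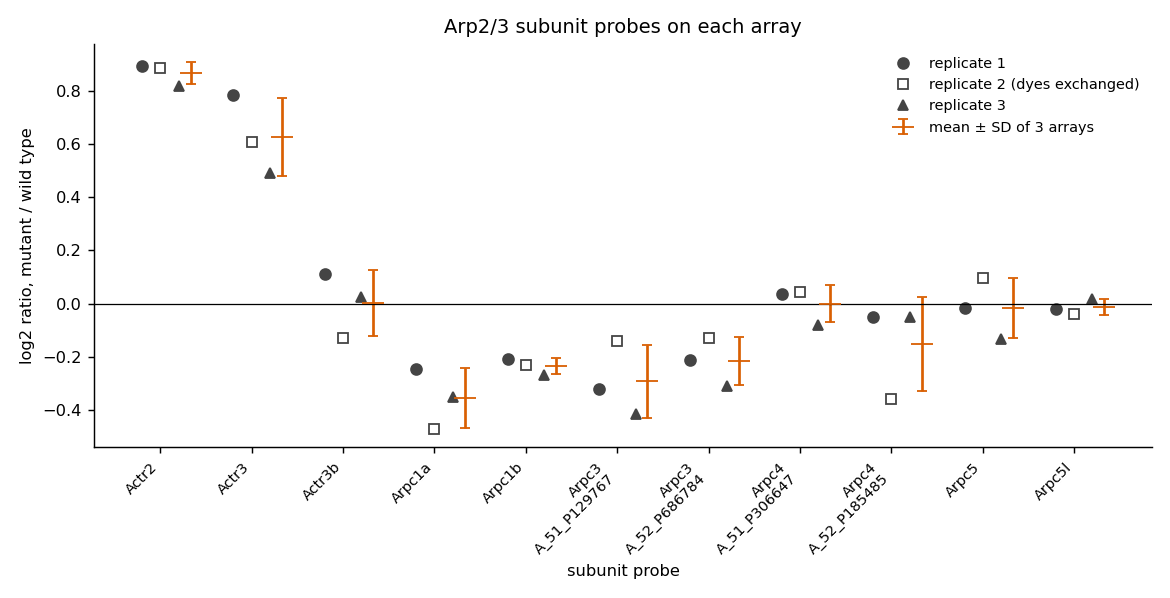
Log2 ratio of mutant over wild type (vertical axis) for each of the 11 subunit probes (horizontal axis), 1 symbol per array, with the mean ± SD of 3 arrays beside them. Actr2 and Actr3 lie between 0.49 and 0.90 on every array, while the 8 probes of ARPC subunits lie between -0.47 and 0.10.

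Arpc1a encodes one form of the beta-propeller subunit ARPC1, which contacts the activating factors. Its probe A_51_P191586 read 2393, 2574 and 2742 in the mutant and 2840.1, 3571 and 3501 in wild type on replicates 1, 2 and 3. Every mutant value lay below every wild-type value, as for 19.3% of tested probes. The log2 ratios were -0.25, -0.47 and -0.35, with a mean of -0.36 ± 0.11 (SD, n = 3; limma adjusted p = 0.00772), so Arpc1a fell to 78.1% of wild type.

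Arpc1b encodes the other form of ARPC1, which is prominent in blood and immune cells. Its probe A_51_P331279 read 1318, 1405 and 1389.6 in the mutant and 1522, 1649.7 and 1674 in wild type. These groups did not overlap either, and the log2 ratios of -0.21, -0.23 and -0.27 were close to each other, with a mean of -0.24 ± 0.03 (SD, n = 3; limma adjusted p = 0.00911). The difference between Arpc1a and Arpc1b was -0.12 ± 0.11 in log2 ratio (SD, n = 3; exact permutation p = 0.25). Microglia markers moved the same way: of 12 listed genes 10 were tested, 7 fell and 1 rose, with a median log2 ratio of -0.18, beside 23.6% lower and 17.1% higher of all 12717 named genes tested. Astrocyte and oligodendrocyte markers had lower medians, -0.45 and -0.25. These medians take the probe with the smallest p of each gene. Over all tested probes they were -0.17 for microglia, -0.21 for astrocyte and -0.22 for oligodendrocyte markers. The summed intensity of the microglia markers ran from 12038 to 14398 in the mutant and from 13228 to 14392 in wild type. The part of any of these cell types in the fall of Arpc1b was not tested.

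Arpc3 encodes a small subunit at the outer face of the complex near Arp3. Its probe A_51_P129767 read 2018, 2369 and 2479 in the mutant and 2522, 2617 and 3305 in wild type, and its dimmer probe A_52_P686784 read 482.2, 540.4 and 533.6 in the mutant and 559.5, 591.0 and 661.8 in wild type. At both probes all mutant values lay below all wild-type values, and replicate 2 showed the smallest gap. The mean log2 ratios were -0.29 ± 0.14 and -0.22 ± 0.09 (SD, n = 3; limma adjusted p = 0.0189 and 0.0229), so Arpc3 fell at both probes.

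Arpc4 encodes a core subunit that with ARPC2 binds the mother filament. Its probes read differently on replicate 2. Probe A_51_P306647 had log2 ratios of 0.03, 0.04 and -0.08 (mean -0.00 ± 0.07, SD, n = 3; limma adjusted p = 0.992) and probe A_52_P185485 of -0.05, -0.36 and -0.05 (mean -0.15 ± 0.18, SD, n = 3; limma adjusted p = 0.157). Intensities at the second probe were 1173 in the mutant and 1504.5 in wild type on replicate 2, against 1133 and 1174 on replicate 1 and 1476 and 1530.2 on replicate 3. Mutant and wild-type values overlapped at both probes. With the dye as a term in the fit, A_52_P185485 read -0.21 (limma adjusted p = 0.0214). That term sets replicate 2, the outlying array of this probe, against replicates 1 and 3. Without replicate 2 the probe read -0.05 (limma adjusted p = 0.38).

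Arpc5 and Arpc5l encode alternative forms of the small subunit ARPC5. Probe A_52_P58041 of Arpc5 had log2 ratios of -0.02, 0.10 and -0.13, with a mean of -0.02 ± 0.11 (SD, n = 3; limma adjusted p = 0.827). Its intensities were 584.4, 624.1 and 469.2 in the mutant and 590.8, 583.6 and 514.3 in wild type, so the groups overlapped. Probe A_51_P180108 of Arpc5l read -0.02, -0.04 and 0.02, with a mean of -0.01 ± 0.03 (SD, n = 3; limma adjusted p = 0.789), at intensities from 3397 to 3895.5 in the mutant and from 3451 to 4002.5 in wild type. A p that misses the threshold does not show that these subunits were the same in both genotypes; the SE in the limma fit was 0.05 for Arpc5 and 0.04 for Arpc5l.

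**Figure D2:**
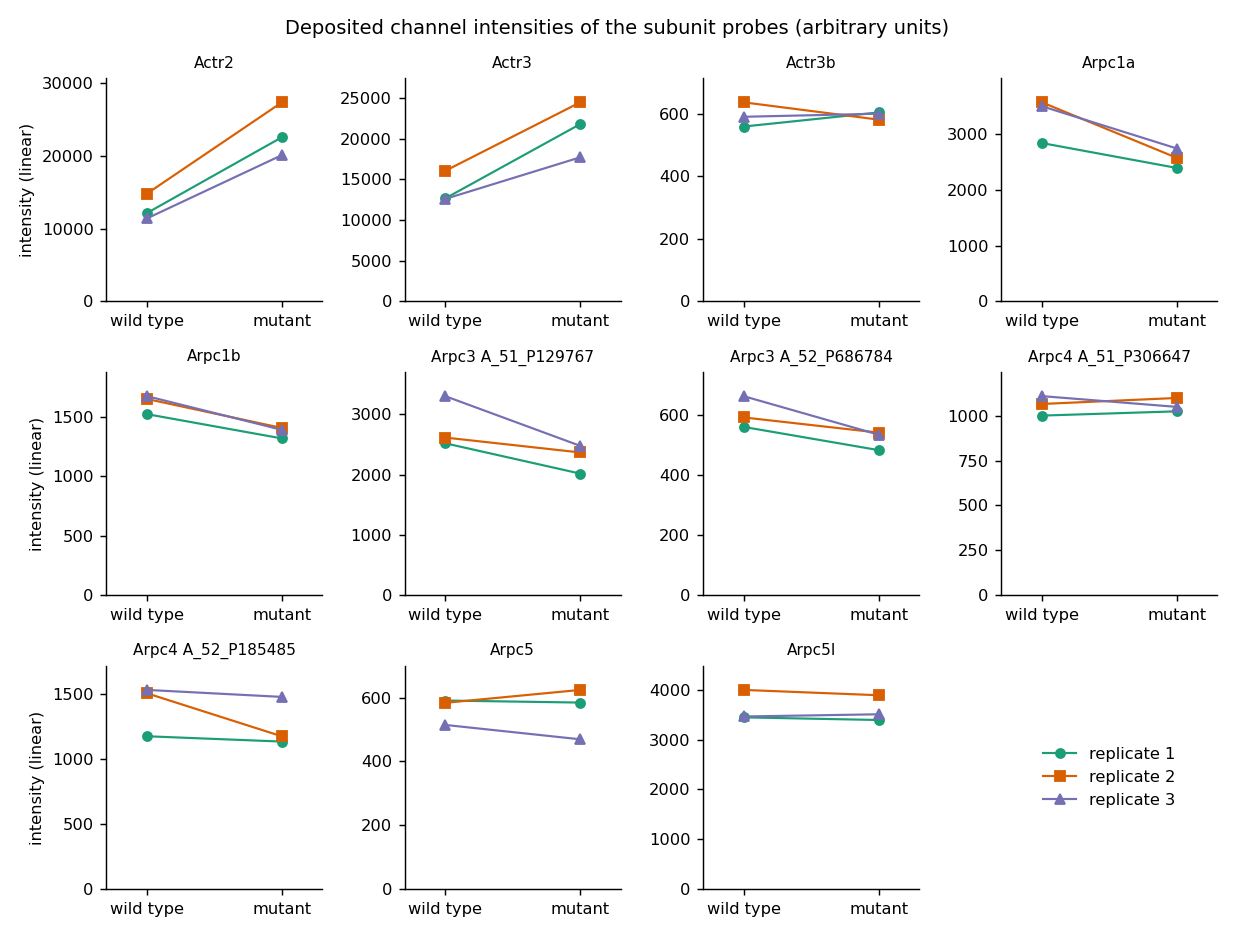
Deposited linear intensity (vertical axis from 0, arbitrary units) in the wild-type and mutant channel of each array for the 11 subunit probes, with 1 line per array. The lines of Actr2 and Actr3 climb on all 3 arrays, those of Arpc1a, Arpc1b and both Arpc3 probes descend on all 3, and those of the remaining panels cross or stay flat except A_52_P185485 of Arpc4, which descends by different amounts.

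Leaving out Actr2, 1 of 10 subunit probes was called higher, 4 lower and 5 neither, beside 15.0% and 18.9% of all tested probes; the list was prompted by this same comparison, so nothing is read from these counts. Their median log2 ratio was -0.09 against -0.00 for all tested probes. The 8 probes of ARPC subunits had medians of -0.13, -0.14 and -0.20 on replicates 1, 2 and 3. With the probes of a gene averaged, Actr2 stood above the mean of the 6 ARPC genes by 1.02, 1.04 and 1.01 on the 3 arrays, given as a description. Actr3 stood above it by 0.91, 0.77 and 0.69, a mean of 0.79 ± 0.12 (SD, n = 3; exact sign permutation test, two-sided p = 0.25, the smallest that 3 arrays allow).

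Both high readings came from bright spots. Mean signals were 17170 for Actr2 and 17004 for Actr3, while the other members ran from 558.5 to 3613.5. Of 307 tested probes at least as bright as the dimmer of both, 19.5% were called higher and 20.8% lower, with a median log2 ratio of 0.05. Among these 307 probes 3 read at least as high as Actr3, Actr2 and Actr3 included, and among all 27530 tested probes 107 did. These sets differ in size, so the counts do not show that such ratios are rarer among bright probes. Gene spots around each member spot, within 10 position units and 257 to 415 in number, had median log2 ratios from -0.04 to 0.14 on the 3 arrays. For Actr2 and Actr3 they ran from -0.04 to 0.00. The dye term of the fit ran from -0.15 (Arpc4 probe A_52_P185485) to 0.11 (Arpc3 probe A_51_P129767) on the log2 scale at member probes. It was 0.01 for Actr2 and -0.01 for Actr3. This term sets replicate 2 alone against replicates 1 and 3. Dye and that array cannot be told apart, so no test of the dye is read from it.

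**Figure D3:**
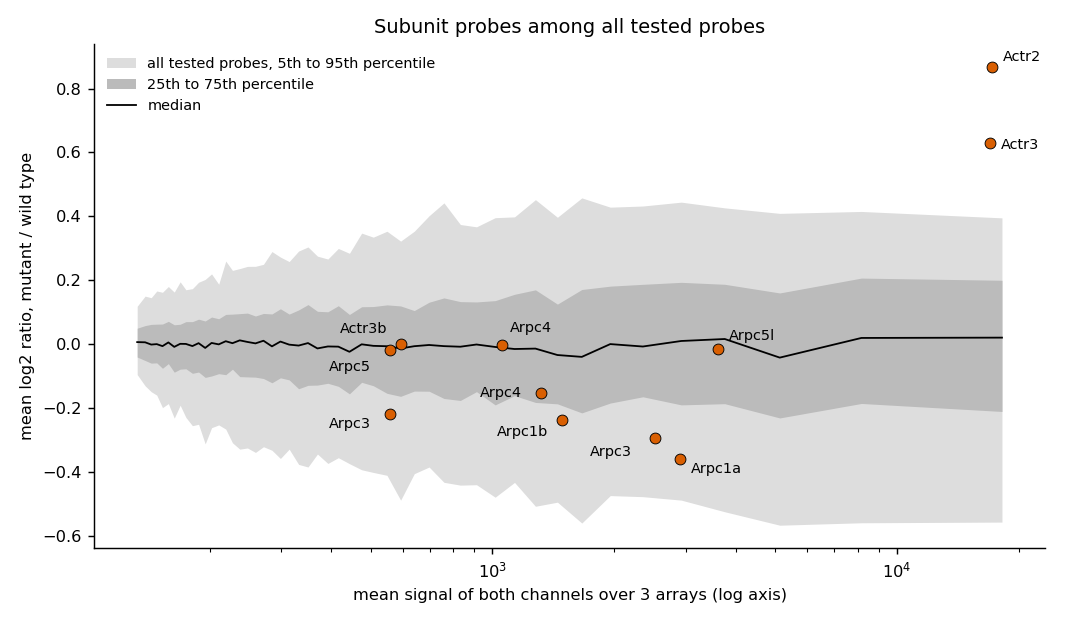
Mean log2 ratio of mutant over wild type (vertical axis) against mean signal of both channels (horizontal log axis) for the 11 subunit probes (points), over bands that hold the 5th to 95th and the 25th to 75th percentiles of all 27530 tested probes in 50 bins of signal. Actr3 lies above the 95th percentile of equally bright probes, as does Actr2, whose high ratio chose the list. The other members lie inside the outer band.

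By the smallest distance over the 3 log2 ratios, the named genes most like Actr2 were Srsf1 (distance 0.08), Sh3bgrl (0.13), Inpp5f (0.22), Matr3 (0.23) and Iah1 (0.23). Actr3 was the 59th nearest of all tested probes, at 0.44. These spots were dim, with mean signals from 272.3 to 598.1. Srsf1, Sh3bgrl, Inpp5f and Matr3 each had another tested probe, which was brighter and read less high, at 0.28, 0.46, 0.24 and 0.68.

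Among actin regulators and related genes, more were called lower than higher, as was the case over all named genes. Not all of the listed genes act with the complex. In 10 lists of activators, inhibitors and other actin regulators, 90 of 108 genes were tested, of which 36 fell and 8 rose by the probe with the smallest p. These are 40.0% and 8.89%, against 23.6% and 17.1% of all 12717 named genes tested, of which 40.7% were called in either direction. The median log2 ratio was -0.07 over the 90 genes and -0.02 over all named genes. No list was tested as a set, and the counts of single lists below stand beside the same 23.6% and 17.1%. These counts fall to 14 called genes without replicate 1 and to 29 with replicates 1 and 2 averaged as 1. The count over all tested probes fell as well under these settings, from 9333 to 2409 and to 5120, so the loss was not particular to the lists. Without replicate 1, limma called 3 WASP and WAVE factors against 7 on 3 arrays, 2 genes of the WAVE regulatory complex against 5, and 2 inhibitors and coronins against 6. It called 2 genes of the cofilin list against 6, 1 barbed-end gene against 3, 3 actin and monomer-binding genes against 4, and 1 formin or other nucleator against 5. It called 0 WASH genes and 0 actin-related proteins of other complexes, against 2 and 5 on 3 arrays. A call lost on fewer arrays does not show that a ratio changed.

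Activators of the complex were among the falls. Of 13 tested genes of WASP and WAVE family factors, their partners and cortactin, 6 fell and 1 rose. The WAVE genes Wasf1 and Wasf3 read -0.59 ± 0.09 and -0.56 ± 0.13, and Wipf2, a partner of the WASP proteins, read -0.61 ± 0.10 (SD, n = 3; limma adjusted p = 0.00259, 0.0035 and 0.00259). Of the 8 genes of the WAVE regulatory complex, which holds WAVE inactive until upstream signals release it, 3 fell and 2 rose. Cyfip2 read -0.69 ± 0.15 and Abi1 -0.25 ± 0.05, while Nckap1 read 0.56 ± 0.15 (SD, n = 3). The other probes of Abi1 (0.06) and Nckap1 (0.13) did not pass. Cyfip1, outside the naming rule and named after its values were seen, passed the threshold in opposite directions, at -0.23 by one probe and 0.21 by the other.

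The WASH complex, which drives Arp2/3 on endosomes, had 2 falls among 3 tested genes, Washc2 at -0.27 ± 0.05 and Washc5 at -0.17 ± 0.0044 with its other probe at -0.09 not passing, and Washc3 read 0.12 ± 0.04 without passing (SD, n = 3). Among 10 inhibitors, debranching factors and coronins, 4 fell and 2 rose. The coronin genes Coro2b and Coro1a read -0.42 ± 0.06 and -0.43 ± 0.07 and had other probes at -0.23 and -0.39, also past the threshold (SD, n = 3). Gmfb, a debranching factor, had probes at -0.24 and 0.18, both past it.

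Genes that handle filaments and monomers were counted in the same way. Of 12 tested genes of cofilin and its regulators 6 fell and 0 rose, with the filament-severing cofilin gene Cfl1 at -0.46 ± 0.03 and its other probe at -0.69, Pak2 at -0.26 ± 0.06 and the phosphatase gene Pdxp at -0.35 ± 0.13 (SD, n = 3). Other probes of Pak2 read -0.05 to 0.01. Limk1, the cofilin kinase gene of the Williams-Beuren interval, read 0.09 ± 0.16 (SD, n = 3; limma adjusted p = 0.342). Of 7 actin and monomer-binding genes 4 fell and 0 rose, led by Cap2 (-0.71 ± 0.12; other probe -0.55, past the threshold), Tmsb10 (-0.53 ± 0.07; other probe -0.51, past it) and Tmsb4x (-0.56 ± 0.19), while Actb, beta-actin, read 0.27 ± 0.32 with replicate 3 at -0.10 against 0.48 and 0.42 (SD, n = 3; limma adjusted p = 0.135).

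Barbed-end genes had 3 falls and 0 rises among 11: Evl at -0.42 ± 0.13, Twf2 at -0.27 ± 0.08 (other probe -0.19, not passing) and Enah at -0.16 ± 0.05 (SD, n = 3). Of 10 formins and other nucleators, which start unbranched filaments, 3 fell and 2 rose. Fmn2 read -0.41 ± 0.09 (other probe -0.15, not passing) and Fhod3 -0.25 ± 0.07, while Spire1 had probes at 0.34 and -0.23, both past the threshold (SD, n = 3). Actin-related proteins of dynactin and chromatin complexes, which share the fold of Arp2 and Arp3 but not the complex, had 4 falls and 1 rise among 8. Actl6b read -0.29 ± 0.03 (other probe -0.15, not passing), Actr1b -0.43 ± 0.19 and Actr1a -0.26 ± 0.08 (SD, n = 3).

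**Figure D4:**
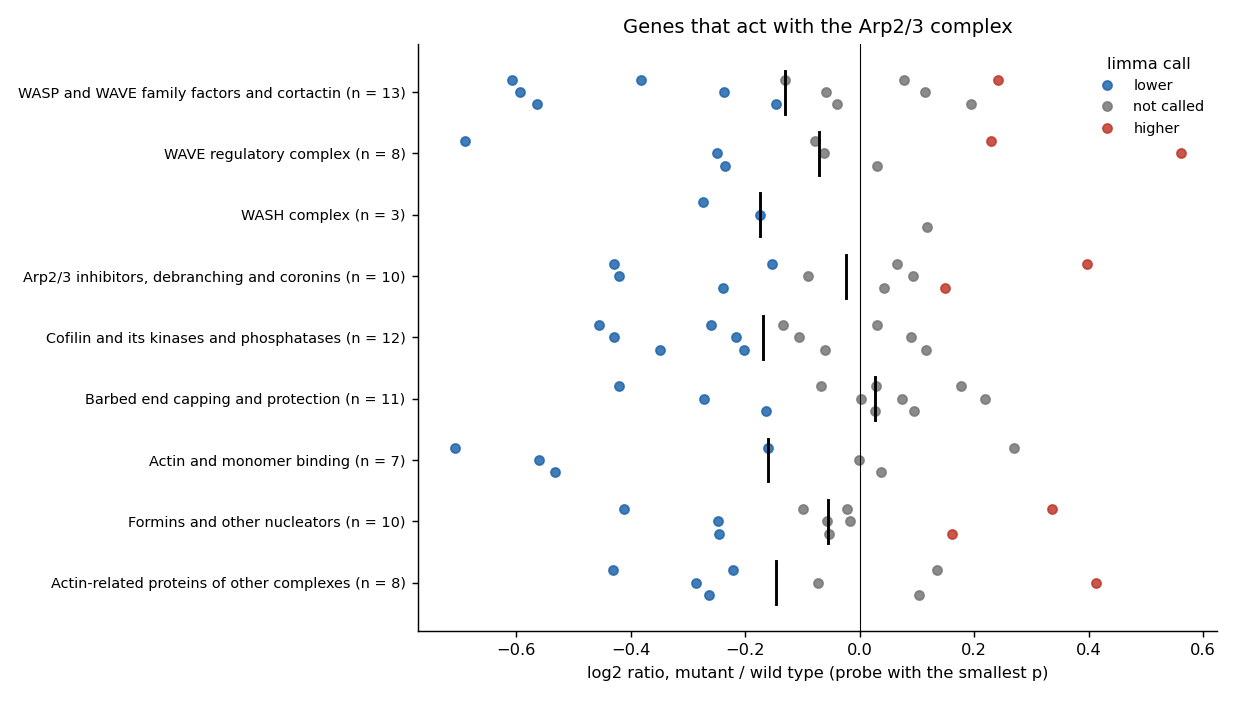
Log2 ratio of mutant over wild type (horizontal axis) for each tested gene of 9 of the lists (rows), by its probe with the smallest p, coloured by limma call; black bars are the list medians and n is the number of genes tested. The 35 falls drawn outnumber the 8 rises, beside 23.6% lower and 17.1% higher of all named genes tested. The list medians run from -0.17 to 0.03.

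Among cell type markers, neuron markers had 3 falls and 1 rise of 6 tested genes (median log2 ratio -0.13), astrocyte markers 4 and 1 of 7 (-0.45), oligodendrocyte markers 3 and 1 of 7 (-0.25), and blood leukocyte markers 1 and 0 of 5 (-0.09), the fall being Coro1a, which is also in the coronin list. Endothelial and pericyte markers had 0 falls and 2 rises of 6 (-0.02), thalamic markers 0 and 1 of 6 (0.22), and striatal markers 2 and 0 of 8 (-0.18), against 23.6% falls and 17.1% rises and a median of -0.02 over all named genes. All these medians take the probe with the smallest p of each gene, and over all tested probes of astrocyte markers the median was -0.21. The part of these cell types and regions in the subunit ratios was not tested. Without replicate 3 Actr2 read 0.89 and Actr3 0.70.

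**Figure D5:**
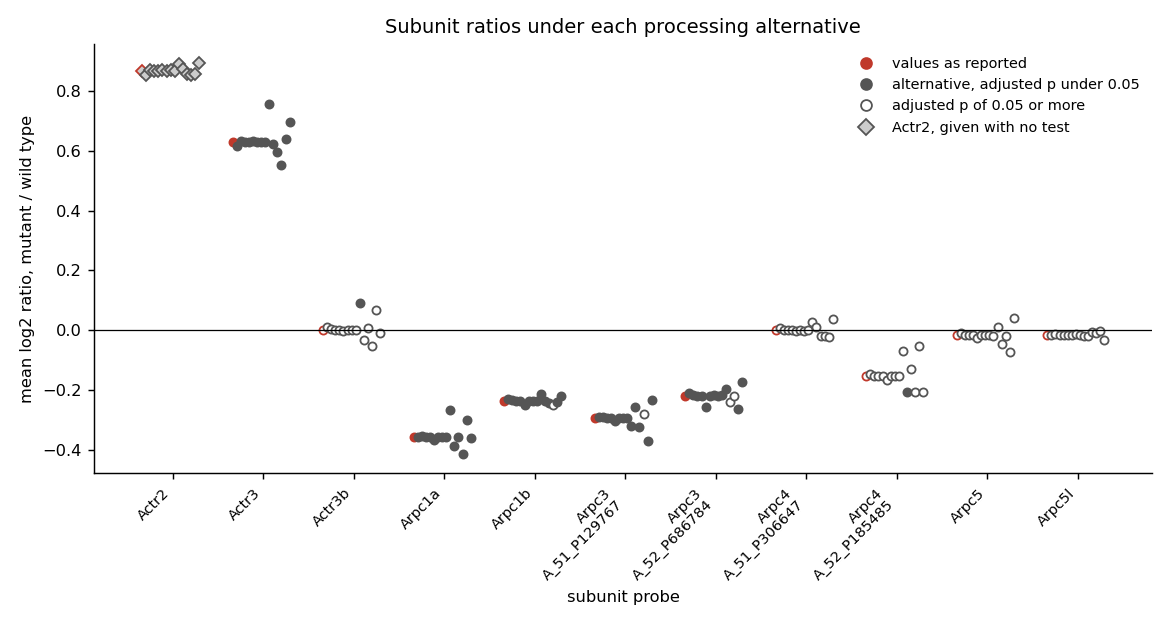
Mean log2 ratio of mutant over wild type (vertical axis) of each subunit probe (horizontal axis) as reported and under 14 processing alternatives; filled circles have a limma adjusted p under 0.05, open ones do not, and the diamonds of Actr2 carry no test. Actr3 stays between 0.55 and 0.76 and Arpc1a between -0.41 and -0.27 with all circles filled, whereas Arpc1b and Arpc3 lose the call in 1 or 2 alternatives.

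Without replicate 1, the calls of Arpc1b (limma adjusted p = 0.0783) and of both Arpc3 probes (0.111 and 0.136) were lost at log2 ratios of -0.25, -0.28 and -0.22, close to those over 3 arrays, and with replicates 1 and 2 averaged as 1 that of the dimmer Arpc3 probe was lost at -0.24 (0.0556).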

How the data were processed

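The authors deposited 1 table per array with linear intensities of 2 channels for 44290 spots, background-subtracted, normalized and corrected for the dye exchange per the deposited readme, which does not name the normalization. Spots were quantified with GenePix and called reliable when foreground exceeded 2 times background, per the readme. The deposited value table holds a score, the signed fold of the same spots; it was identical to each array's fold column at all 44290 spots, with medians of -1.01, -1.00 and 1.00, and 0 of its columns were left unused. Its direction, test over control per the readme, is taken as mutant over wild type.

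Log2 ratios of the deposited channels were averaged over spots of a probe. Probes reliable on at least 2 of 3 arrays were tested, 27530 of 41174. RefSeq accessions without versions (GRCm38.p6, used for names and gene order) named 21437 of the 41174 probes and 16543 of the 27530 tested ones. For every probe the mean over arrays was set against 0 by limma 3.58.1, running lmFit then eBayes under R 4.3.3, with Benjamini-Hochberg adjustment over all tested probes, threshold 0.05. Single differences used exact sign permutation. The fit was tested on simulated data of this comparison with 200 of 27530 probes changed. It recovered 0% of changes of 0.25 and 0% of changes of 0.5 on the log2 scale, with 0 false calls; a second simulation, added after that was seen, recovered 87% of changes of 1 and 98% of changes of 2, with 4 false calls. Most subunit ratios are of the smaller sizes, which the fit would miss with as few true changes as were simulated. In the measured data 33.9% of probes passed, so the adjustment was less strict than in the simulations. Arpc1b at -0.24 and Arpc3 at -0.29 and -0.22 passed there. The simulated recovery therefore does not give the sensitivity of the fit in these data. Python 3.11.15, pandas 2.3.3 and matplotlib 3.10.9 made tables and figures.

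Genes of a list were counted by their smallest-p probe, and the 3 genes with the smallest p per list were named, with Limk1, Actb and Gtf2i; likeness to Actr2 was the Euclidean distance over 3 log2 ratios, and 5 genes were named, passing over RIKEN and predicted names. One of the 10 lists is counted in their total but is not reported here by itself. The members, lists and alternatives were chosen with earlier results of these data known. Precision is limited by having 3 arrays. The 14 alternatives changed the normalization, centring, filter on dim probes, background, spot summary, source of the ratio, variance model, array weights, dye term and arrays used.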

Additional observations from a re-analysis of the deposited data

How the results depend on the processing

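Actr2 and Actr3 kept their direction under all 14 alternatives, from 0.85 to 0.89 and from 0.55 to 0.76 on the log2 scale, and Actr3 its call (limma adjusted p from 5.46e-05 to 0.0258). Arpc1a kept its call too (up to 0.0347). Changes of the filter, spot summary or variance model could not move any of these ratios. Each member probe had 1 spot and was reliable on all arrays. The count of subunit probes past the threshold, Actr2 included, was 6. It ranged from 3 to 6 with 1 array left out and was 7 with array weights and with the dye term. Actr2 chose the list and carries no test, so the count without it is the one to read. That count was 5, with 1 higher and 4 lower calls. With 1 array left out it ranged from 2 to 5, with 1 higher call each time, and was lowest without replicate 1. It was 6 with array weights (2 higher, 4 lower) and 6 with the dye term (1 higher, 5 lower). With replicates 1 and 2 averaged it was 4 (1 higher, 3 lower). The count over all probes was 9333, from 2409 to 9885 with 1 array left out, 18617 with array weights and 5120 with replicates 1 and 2 averaged. Actin regulator genes past the threshold numbered 44, from 14 to 44 with 1 array left out, 68 with array weights and 29 with the averaged replicates. The array weights were 5.84, 0.373 and 0.459 for replicates 1, 2 and 3, so the weighted fit rests mostly on replicate 1.

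Readings near 0 changed sign. Arpc4 probe A_51_P306647 read 0.0092 with loess, 0.0022 with median centring, 0.0266 with array weights, 0.0107 with the dye term and from -0.0233 to 0.0393 with 1 array left out. Actr3b read -0.002 with the negative control level subtracted, -0.0317 with the dye term and from -0.0537 to 0.0682 with 1 array left out, and 0.09 with array weights, where it passed (0.0411). Arpc5 read 0.0113 with the dye term and from -0.074 to 0.0405 with 1 array left out. The weighted fit leans on replicate 1, where Actr3b read 0.11. With 1 array left out, each value is the mean over the arrays kept. Why the arrays differ at these probes was not tested.

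Each ratio already pairs mutant with wild type on its array, and the reported test is of those pairs; with 1 group of arrays there is no further replicate block to fit. Arpc2 was not analysed here, 7 of the 9 measured genes rest on 1 probe, and no probe sequence was used, so hybridisation to a related gene was not tested.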
